A study of Rattus norvegicus with 8 samples.

Results

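The genes described here encode the subunits of the oxidative phosphorylation machinery, as measured in the cortex of rats after an experimental stroke. They were chosen by symbol alone: every probe of the deposited table whose gene symbol began with Nduf, Uqcr, Cox4 to Cox8 or Atp5, or was Sdha, Sdhb, Sdhc or Sdhd. This took in 95 of 23609 probes, which carry 76 gene symbols. Of these, 67 genes had at least 1 probe with a value on all 8 arrays and could be compared between the groups in full. The symbols of the array are old, and 18 of the 76 have been renamed in RefSeq, among them most of the Atp5 symbols (Atp5o is now Atp5po, and Uqcr is Uqcr11). Current names are used below. By complex the symbols split into 35 of complex I, 4 of complex II, 6 of complex III, 12 of complex IV and 13 of complex V. The 6 other matches encode no subunit of a complex: the complex I assembly factors Ndufaf3 and Ndufaf4, the genes Dmac2 and Dmac2l (old symbols Atp5sl and Atp5s), Emc8 (old symbol Cox4nb, a member of the membrane protein insertion complex of the endoplasmic reticulum), and the transcribed pseudogene Cox6c-ps1. Ndufa4 was kept with complex I by its symbol, although its protein is now counted with complex IV. Cox7a2l, whose protein joins complexes III and IV into supercomplexes, was kept with complex IV.

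Oxidative phosphorylation is the last stage of aerobic energy metabolism and takes place in the inner mitochondrial membrane. Complex I (NADH dehydrogenase) and complex II (succinate dehydrogenase, also an enzyme of the citric acid cycle) pass electrons to ubiquinone, complex III passes them on to cytochrome c, and complex IV (cytochrome c oxidase) hands them to oxygen. Complexes I, III and IV pump protons as they do so, and complex V (ATP synthase) uses the proton gradient to make ATP. All subunits measured here are encoded in the nucleus. Those encoded by mitochondrial DNA were not analysed here. The cortex depends heavily on this pathway, because neurons spend most of their ATP on restoring ion gradients.

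The animals were Sprague Dawley rats. Cortex was taken at 24 h from the ipsilateral side of a brain section 4 mm thick, from 4 rats after transient middle cerebral artery occlusion (tMCAO), in which the flow of this artery is blocked and then restored, and from 4 sham-operated controls. Their ages and sex are not given in the sources used here. From each animal 100 ng of total RNA was amplified in 2 rounds and hybridised in the Cy5 channel of an Agilent array, with pooled RNA of sham cortex as the reference in Cy3, and no dye swap was made. The log2 ratio of Cy5 to Cy3 is the value used below, so 0 is the level of the pool, and a difference is the mean of the tMCAO arrays minus the mean of the sham arrays.

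Between 23434 and 23565 probes had a value on an array, and the SD of the log2 ratio over all probes was 0.23 to 0.258 on the sham arrays. On tMCAO replicates 1, 2 and 3 it was 0.741, 0.69 and 0.614, and on replicate 4 it was 0.368, so replicate 4 lay closer to the pool than the other tMCAO animals. The tissue label was checked against cell type markers. Neuronal and oligodendrocyte markers were well detected, with summed Cy5 signals on the sham arrays of 43.5 to 47.2 for 6 neuronal genes and 24.3 to 30.4 for 6 oligodendrocyte genes. The number of arrays limits the precision of the values. Every p-value is from limma with a Benjamini-Hochberg adjustment over all 17928 features, and a gene was called at an adjusted p under 0.05.

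Binding sequences of transcription factors known to drive respiratory genes were looked for in the promoters, because the members are known for shared control by NRF1 (nuclear respiratory factor). RefSeq gave a promoter window, from 250 bases before to 50 after the start, for 66 of the 76 symbols on the GRCr8 assembly. The NRF1 sequence was spelled as GCGC, 2 bases of any kind and GCGC, which reads the same on both strands, and the spelling was settled after several others had been tried. It lay in 14 of 66 member promoters (21.2%), against 5.58% of all 33469 promoters and 11.6% of the 8668 promoters of measured genes. The 4 promoters printed here hold it and were chosen after their matches were seen: those of 3 genes that fell and of Ndufaf4, the 1 member that rose. Each is the 250 bases before the start, 5′ to 3′ on the strand of the gene, with the NRF1 sequence in capitals. They lie at chr8:118467973-118468222 on the plus strand (Uqcrc1), chr11:44657484-44657733 on the minus strand (Atp5po), chr1:30764303-30764552 on the plus strand (Sdha) and chr5:43401545-43401794 on the plus strand (Ndufaf4).
Uqcrc1: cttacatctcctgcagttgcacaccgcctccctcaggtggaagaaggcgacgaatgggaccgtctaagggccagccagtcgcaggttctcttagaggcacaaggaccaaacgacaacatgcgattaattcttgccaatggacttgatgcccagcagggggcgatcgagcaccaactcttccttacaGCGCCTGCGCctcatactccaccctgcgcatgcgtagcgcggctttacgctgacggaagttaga
Atp5po: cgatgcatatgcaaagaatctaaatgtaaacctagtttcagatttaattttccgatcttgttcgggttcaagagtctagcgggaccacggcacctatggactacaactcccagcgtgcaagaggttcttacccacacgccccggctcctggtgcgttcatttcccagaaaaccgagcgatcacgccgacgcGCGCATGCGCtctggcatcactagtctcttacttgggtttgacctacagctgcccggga
Sdha: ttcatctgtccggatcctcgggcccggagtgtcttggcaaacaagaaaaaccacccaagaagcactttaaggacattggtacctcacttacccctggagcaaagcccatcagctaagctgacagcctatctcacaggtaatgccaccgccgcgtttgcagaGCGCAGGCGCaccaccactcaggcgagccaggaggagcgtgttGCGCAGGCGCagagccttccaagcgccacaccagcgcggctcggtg
Ndufaf4: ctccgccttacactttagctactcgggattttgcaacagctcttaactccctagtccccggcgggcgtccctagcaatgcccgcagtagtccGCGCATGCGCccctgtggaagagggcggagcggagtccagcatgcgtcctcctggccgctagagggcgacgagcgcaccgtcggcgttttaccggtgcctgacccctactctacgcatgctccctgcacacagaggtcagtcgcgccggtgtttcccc
The sequence occurred once before the start of Uqcrc1, Atp5po and Ndufaf4, and at a pair of positions before that of Sdha. It was present in 5 of the 15 promoters of called lower members and in 5 of the 43 promoters of members that were not called. The YY1 sequence AAGATGGCG lay in 10 of 66 member promoters (15.2%) against 1.73% of all promoters and 3.39% of those of measured genes, in 5 of the 15 lower and 5 of the 43 uncalled ones. The ERR sequence AAGGTCA was in 10 members (15.2%, against 4.61% of all promoters and 3.01% of those of measured genes), 3 of them lower and 2 uncalled. The GABP sequence CCGGAAGT was in 6 members (9.09%, against 3.81% of all promoters and 7.15% of those of measured genes), none of them among the 15 lower ones and 4 among the uncalled ones. The remaining matches lay in promoters of members without a complete probe or of Ndufaf4. These counts used both strands and are descriptions of the letters in these windows.

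The tMCAO and sham animals were compared to find respiratory genes whose level changed after the occlusion. Of the 67 members, 17 fell (25.4%) and 1 rose; over all features the called share was 16.0% lower and 15.0% higher. Of the 61 measured subunits, 16 fell and 0 rose by limma, and the riser was the assembly factor Ndufaf4. At an unadjusted p under 0.05 the counts were 28 lower and 0 higher. The share of all features at this unadjusted threshold was not counted, here or for the lists below. The unadjusted counts therefore have no background to be read against. The members are bright genes, with a median Cy5 signal of 2.35 per probe against 0.23 for all probes, and in the 25% of features with the highest signal 23.5% were called lower and 20.3% higher. The members' share of lower calls was near that of these features, and their share of higher calls was below it. The falls were small, from 1.17-fold to 1.66-fold. Of the 67 members, 55 (82.1%) had a difference below 0, against 55.2% of all features, and the median difference was -0.23 on the log2 scale against -0.046. In 14 of the 17 genes that fell, all 4 tMCAO animals lay below all 4 sham animals. Over all members 17 had such separated groups with tMCAO below, which is again 25.4%, and over all features the share was 16.2%. In bulk tissue, fewer cells of a type and less RNA per cell cannot be told apart.

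**Figure D1:**
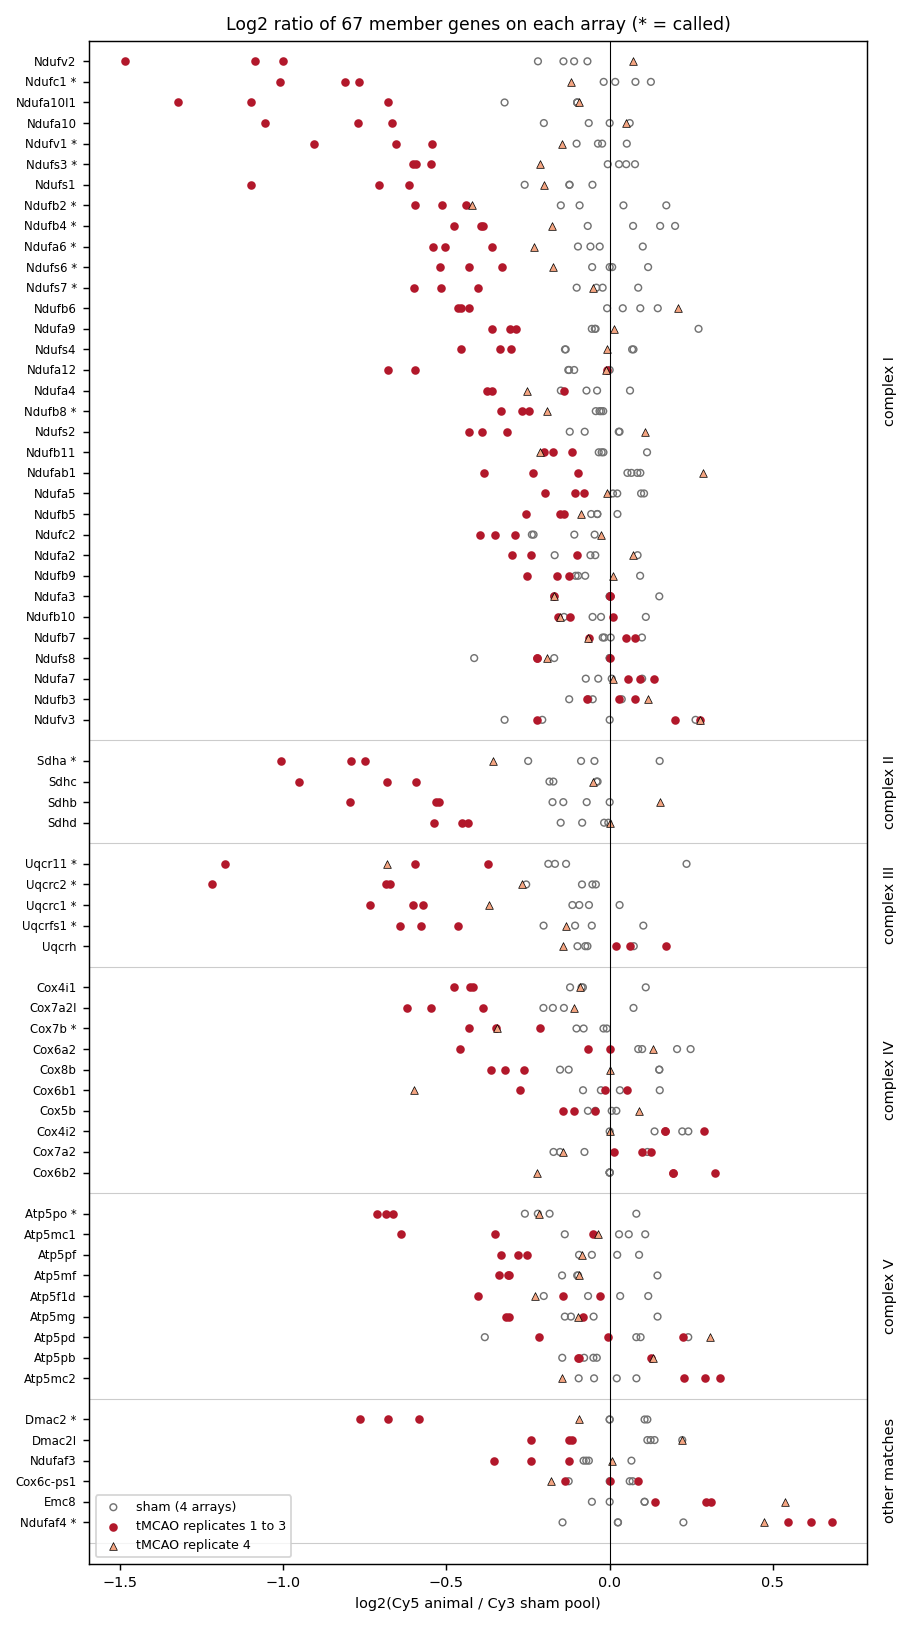
Log2 ratio of Cy5 (the animal) to Cy3 (the sham pool) of the 67 members on each array, grouped by complex and ordered by the difference between the groups. Open circles are sham arrays, filled circles tMCAO replicates 1 to 3 and triangles tMCAO replicate 4; a star marks a called gene. Most members lie left of 0 on tMCAO replicates 1 to 3, and the triangles lie nearer to the sham arrays.

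The medians of the 67 members were -0.055, 0.062, -0.055 and -0.038 on sham arrays 1 to 4. They were -0.31, -0.31, -0.33 and -0.09 on tMCAO arrays 1 to 4. The tMCAO animals thus lay below the sham animals on this summary, replicate 4 by the least. On replicates 1, 2 and 3, 48, 46 and 49 of the 67 members lay below the whole range of the sham arrays (71.6%, 68.7% and 73.1%), against 39.3%, 36.4% and 37.7% of all features. On replicate 4 it was 26 members (38.8%), near the 33.5% of all features. Members above the sham range numbered 6, 7, 7 and 15 (8.96%, 10.4%, 10.4% and 22.4%), against 32.1%, 33.8%, 31.4% and 25.7% of all features. The authors' deposited table gives a p-value for each probe and array. By it, at p under 0.01, 31 of 89, 34 of 91 and 29 of 91 member probes were below the pool on tMCAO replicates 1, 2 and 3 (34.8%, 37.4% and 31.9%), and 0 of 84 on replicate 4; over all probes the deposited table has 18.1%, 17.5%, 14.5% and 4.54% below the pool. Member probes above the pool numbered 1, 1, 1 and 2 in the deposited table, against 17.3%, 16.1%, 14.5% and 7.2% of all probes. On every sham array no member probe was below or above it, where 0.807% to 1.07% of all probes were below and 1.06% to 1.66% above.

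Complex I, the entry point for electrons from NADH, had 9 lower members of 33 measured and no higher one, with a median difference of -0.23. The lower share was 27.3%, against 16.0% of all features and 23.5% of the 25% of features with the highest signal. The 10 measured Ndufs and Ndufv genes, which include the catalytic core with its flavin and iron-sulphur clusters, had 4 lower members and a median of -0.38. The Ndufa genes had 1 lower member of 11 and a median of -0.23, the Ndufb genes 3 of 10 and a median of -0.16, and the Ndufc genes 1 of 2. The last 3 groups encode supernumerary subunits, which surround the core. The difference between these groups was not tested.

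Ndufc1, a small supernumerary subunit in the membrane arm, had the largest called fall. Its log2 ratios were 0.079, 0.13, -0.018 and 0.017 on the sham arrays and -1.01, -0.81, -0.77 and -0.12 on the tMCAO arrays. Replicates 1 to 3 were clearly lower and replicate 4 only slightly below the sham range. The difference was -0.73 ± 0.18 (SE, n = 4 per group, limma adjusted p = 0.0167), a 1.66-fold fall.

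Ndufs3, a core subunit of the peripheral arm, lay at 0.029, -0.0058, 0.051 and 0.078 on the sham arrays. On the tMCAO arrays it lay at -0.60, -0.55, -0.59 and -0.21. The first 3 tMCAO animals were close together, and no tMCAO value overlapped a sham value. It fell by 0.53 ± 0.10 (SE, n = 4, limma adjusted p = 0.0081). Both of its probes gave the fall, at -0.57 and -0.48.

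Ndufv1, the flavin-binding subunit that oxidises NADH, ranged from -0.10 to 0.052 on the sham arrays. Its tMCAO values were -0.90, -0.54, -0.66 and -0.15, again all below the sham values. The difference was -0.54 ± 0.15 (SE, n = 4, limma adjusted p = 0.0277). The call was lost in 7 of the 8 fits that leave out 1 array, at adjusted p up to 0.0737, and held without tMCAO replicate 4.

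Ndufb2 and Ndufb4, supernumerary subunits of the membrane arm, were the remaining large falls. Ndufb2 was at -0.51, -0.44, -0.60 and -0.42 on the tMCAO arrays and between -0.15 and 0.17 on the sham arrays, a fall by 0.49 ± 0.094 (SE, n = 4, limma adjusted p = 0.0081). In Ndufb2 replicate 4 was nearly as low as the others. Ndufb4 fell by 0.45 ± 0.097 (adjusted p = 0.0113), from -0.067 to 0.20 on the sham arrays to -0.39, -0.48, -0.39 and -0.18 on the tMCAO arrays. Its brighter probe gave -0.67 and was called, and the dim probe gave -0.23 and was not.

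The other called complex I genes were Ndufa6, Ndufs6, Ndufs7 and Ndufb8, with differences between -0.39 and -0.23. Some genes not called had larger estimates, and all genes of this paragraph are named after their values were seen. Ndufv2, the partner of Ndufv1 in the NADH-oxidising module, lay at -1.49, -1.0 and -1.09 on tMCAO replicates 1 to 3 and at 0.071 on replicate 4. Its sham values were -0.22 to -0.068, so replicate 4 was above all of them. The estimate of -0.74 ± 0.29 had a limma adjusted p of 0.0811. Ndufa10 and its near-identical paralog Ndufa10l1 (-0.56 and -0.64, adjusted p = 0.0761 and 0.0722) also lay low on replicates 1 to 3 and not on replicate 4, and which of the pair the probes report is uncertain. Ndufs4 had 2 probes of similar brightness that were called in opposite directions, at -0.87 (adjusted p = 0.0256) and 0.38 (adjusted p = 0.0241), so its mean of -0.24 stands for neither.

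**Figure D2:**
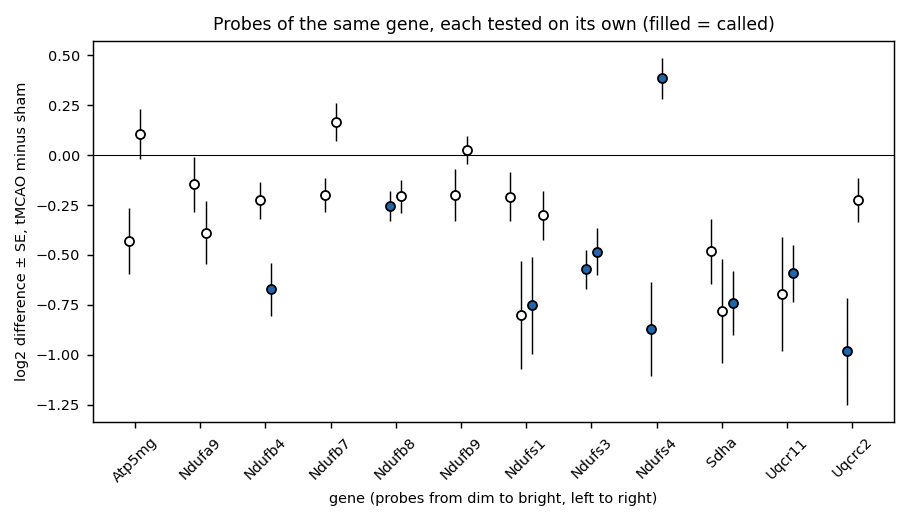
Log2 difference (tMCAO minus sham, ± SE) of each probe of the 12 members that have several probes with complete values, ordered from dim to bright within a gene. Filled points were called. In Ndufs4, Ndufb7, Ndufb9 and Atp5mg the probes lie on both sides of 0.

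Complex II, which feeds electrons from succinate, had 1 called gene of 4 (25%, against 16.0% of all features lower) and a median of -0.39. Sdha, the flavoprotein with the catalytic site, had log2 ratios of -0.047, -0.088, 0.15 and -0.25 on the sham arrays and -0.79, -1.01, -0.75 and -0.36 on the tMCAO arrays. All tMCAO values were lower, and replicate 4 was nearest to the sham range. The fall was by 0.67 ± 0.15 (SE, n = 4, limma adjusted p = 0.0122), or 1.59-fold. The other subunits were low on the first 3 tMCAO animals and not on replicate 4. Sdhb, the iron-sulphur subunit, was at -0.52, -0.80, -0.53 and 0.15 on the tMCAO arrays (difference -0.33, adjusted p = 0.202). Sdhd, a membrane anchor, was at -0.45, -0.54, -0.43 and 0 (difference -0.29, adjusted p = 0.101). Without tMCAO replicate 4 all 4 genes of complex II were called lower, against 24.1% of all features.

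Complex III, which passes electrons from ubiquinol to cytochrome c, had 4 lower genes of 5 (80%, against 16.0% of all features) and a median of -0.51. Uqcrc1, a core protein of the matrix side, was at -0.093, 0.03, -0.063 and -0.11 on the sham arrays. It was at -0.60, -0.73, -0.57 and -0.37 on the tMCAO arrays, so the fall was present in every animal. The difference was -0.51 ± 0.093 (SE, n = 4, limma adjusted p = 0.00706), a 1.42-fold fall with the smallest adjusted p among the lower members. In the Cy5 signal alone the difference was -0.27 and not called (limma adjusted p = 0.0691). The pool signal was higher on the tMCAO arrays by 0.26 (limma adjusted p = 0.0369).

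Uqcr11, a small subunit of the complex, was at -0.19, 0.24, -0.17 and -0.13 on the sham arrays and -1.18, -0.37, -0.60 and -0.68 on the tMCAO arrays. Here replicate 2, not replicate 4, was closest to the sham arrays. The difference was -0.64 ± 0.18 (SE, n = 4, limma adjusted p = 0.0262). The pool signal of the brighter probe passed 19.24, the lowest value at which bright signals piled up in any channel. It did not reach the pile of its own channel on any array. Without probes that reached 19.24 the call was lost (-0.70, limma adjusted p = 0.0947). Uqcrc2, the other core protein, fell by 0.60 ± 0.18 (adjusted p = 0.0351), with -1.22 on replicate 2 and -0.27 on replicate 4 against -0.26 on the lowest sham array. Its dimmer probe gave -0.98 and its brighter one -0.22, and with the brighter one alone it was not called (adjusted p = 0.144).

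Uqcrfs1, the Rieske iron-sulphur protein, fell by 0.39 ± 0.13 (SE, n = 4, limma adjusted p = 0.0462), and on replicate 4 it lay within the sham range. Calls were lost in 7 of the 8 fits without 1 array for Uqcrfs1 (adjusted p up to 0.112), in 6 for Uqcrc2 (up to 0.0849) and in 5 for Uqcr11 (up to 0.0691). The fall of Uqcrc1 held in all 8. Uqcrh, the hinge protein, was the 1 measured gene of the complex that was not called and is named for that, after its values were seen. It was at 0.019, 0.063, 0.17 and -0.14 on the tMCAO arrays and had a difference of 0.07 (adjusted p = 0.574), with Cy5 signals near the top of the scale.

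**Figure D3:**
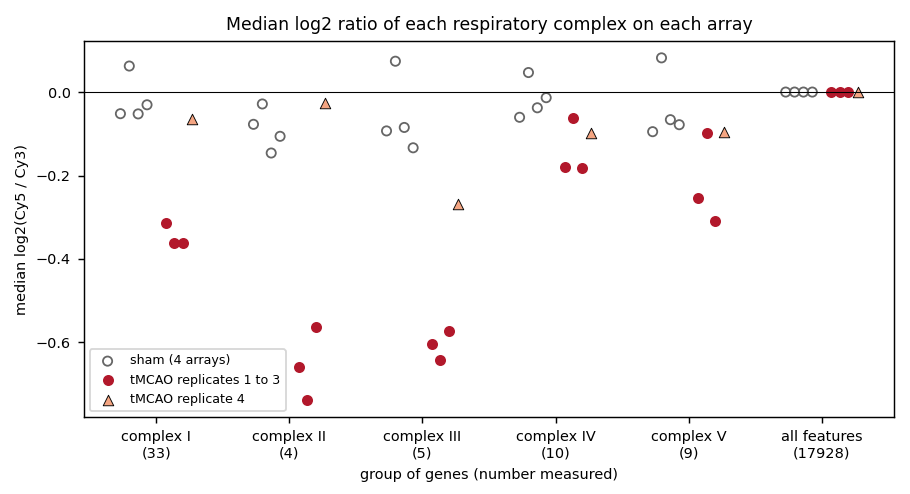
Median log2 ratio of the measured genes of each complex on each array, beside the median of all 17928 features. The medians of complexes II and III are lowest on tMCAO replicates 1 to 3; on replicate 4 (triangles) the complex III median is -0.27 and the complex II median -0.026.

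Complex IV, the oxidase, had 1 lower gene of 10 (10%, below the 16.0% of all features) and a median of -0.24. Most of its measured genes belong to subunits with tissue isoforms. Cox7b, a small structural subunit, was called. It was at -0.10, -0.019, -0.0088 and -0.08 on the sham arrays and at -0.21, -0.43, -0.35 and -0.34 on the tMCAO arrays. The groups did not overlap and replicate 4 was as low as the others. The difference was -0.28 ± 0.076 (SE, n = 4, limma adjusted p = 0.0247), lost in 5 of the 8 fits without 1 array (adjusted p up to 0.0644). In the Cy5 signal alone the difference was 0.023, and the pool signal of this gene was higher on the tMCAO arrays by 0.32.

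Cox4i1, the main isoform of the regulatory subunit, was at -0.12, 0.11, -0.082 and -0.086 on the sham arrays. On the tMCAO arrays it was at -0.43, -0.48, -0.42 and -0.09, so replicate 4 lay inside the sham range. The difference of -0.31 missed the threshold (limma adjusted p = 0.0579), and without replicate 4 it was -0.40 and called (adjusted p = 0.00459). Cox4i2, the isoform known from lung and from low oxygen, was dim (mean Cy5 signal 0.105) and had a difference of 0.0071 (95% interval -0.20 to 0.22).

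Of the other isoform pairs no member was called. The muscle isoforms Cox6a2 and Cox8b were dim, with mean Cy5 signals of 0.18 and 0.0929 and differences of -0.26 and -0.24 (adjusted p = 0.153 and 0.143). Cox6b1, one of the brightest members, had -0.28, -0.015, 0.053 and -0.60 on the tMCAO arrays, which scattered across the sham values (difference -0.23, adjusted p = 0.257). Its testis counterpart Cox6b2 was near the rounding step of the deposited values (mean Cy5 signal 0.0755, difference 0.12, adjusted p = 0.455). Cox7a2 had a difference of 0.095 (adjusted p = 0.484), and Cox7a2l, the supercomplex factor, one of -0.31 (adjusted p = 0.0966), called at -0.41 without replicate 4.

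Complex V, the ATP synthase, had 1 lower gene of 9 (11.1%, below the 16.0% of all features) and a median of -0.17. Atp5po, the peripheral stalk subunit also called OSCP, was at -0.26, 0.082, -0.22 and -0.18 on the sham arrays and at -0.69, -0.71, -0.66 and -0.22 on the tMCAO arrays. The first 3 tMCAO animals were nearly equal, and replicate 4 lay inside the sham range. The difference was -0.42 ± 0.13 (SE, n = 4, limma adjusted p = 0.043). It was called in 1 of the 8 fits without 1 array, the one without replicate 4. In the Cy5 signal alone the difference was -0.11 (adjusted p = 0.581), and the pool signal was higher on the tMCAO arrays by 0.34 (adjusted p = 0.00418).

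The c-ring subunit, whose rotation is driven by protons, is encoded by several genes that make the same mature protein. Atp5mc1 was at -0.64, -0.052, -0.35 and -0.035 on the tMCAO arrays (difference -0.28, adjusted p = 0.159). Atp5mc2 was at 0.29, 0.34, 0.23 and -0.15 (difference 0.19, adjusted p = 0.245). On the first 3 tMCAO animals every Atp5mc2 value was above every sham value. Atp5mc1 did not separate in this way, since its value on replicate 2 lay inside the sham range of -0.14 to 0.11. Without replicate 4 Atp5mc2 was called higher (0.30, adjusted p = 0.0121) and Atp5mc1 was not called (-0.36, adjusted p = 0.0675). Atp5pb, a stalk subunit, had a difference of 0.095 (adjusted p = 0.422).

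The 9 genes without a complete probe had bright signals. Of the 95 member probes, 13 (13.7%) lacked a value on some array, against 0.987% of all probes, and each of the 13 reached the lowest value at which bright signals piled up (19.24). Over all probes 1.52% reached it, and of the member probes 17.9% did. Probes of Ndufs5, Cox5a and Atp5f1e and 1 of Ndufb8 had no value on any of the 4 tMCAO arrays, and values on 2 to 4 sham arrays. These genes were fitted with the arrays that had a value and are named because of the missing values, after they were seen. Atp5f1c, a rotor subunit, was at -0.57, -0.73 and -0.53 on tMCAO replicates 1 to 3 and at -0.12 to 0.042 on the sham arrays, with no value on replicate 4 (difference -0.57 ± 0.09, SE, n = 3 and 4, limma adjusted p = 0.00584). This value thus lacks replicate 4, the tMCAO animal closest to the pool. It is not comparable with values from all 4 tMCAO animals. The next 5 genes had 1 channel or both at the top of the scale on some arrays, so their differences are limited by the scale and are given without a test. Atp5f1a, a catalytic-head subunit, was at -0.94, -0.63 and -0.41 on tMCAO replicates 1 to 3, all of them at the top of the scale in 1 channel (difference -0.53). Ndufa8 of complex I, at the top of the scale on tMCAO replicates 1 and 2, had a difference of -0.44. Those of Cox8a, Atp5mc3 and Uqcrb were -0.35, -0.17 and -0.043. Both channels were at the top of the scale for Cox8a on sham replicate 4 and tMCAO replicate 1. The same held for Uqcrb on tMCAO replicate 2, so the differences of Cox8a and Uqcrb are not bounds in either direction. Of these 5 genes only Cox8a had a value on tMCAO replicate 4. Ndufs5, Cox5a and Atp5f1e could not be tested.

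Among the other matches, Ndufaf4 was the only member that rose. It was at 0.025, -0.14, 0.026 and 0.23 on the sham arrays and at 0.54, 0.68, 0.62 and 0.47 on the tMCAO arrays. All tMCAO animals were higher, replicate 4 included, and the groups did not overlap. The difference was 0.55 ± 0.097 (SE, n = 4, limma adjusted p = 0.00649), a 1.46-fold rise. Dmac2, known from human cells as a factor of complex I assembly, fell by 0.59 ± 0.14 (SE, n = 4, adjusted p = 0.0175) from 0 to 0.12 on the sham arrays to -0.68, -0.58, -0.77 and -0.093 on the tMCAO arrays. Its mean Cy5 signal was 0.125. Emc8 lay at 0.29, 0.31, 0.14 and 0.54 on the tMCAO arrays, above all sham values, and missed the threshold (0.28, adjusted p = 0.0621); it is named after its values were seen, as the other member whose groups separated upwards.

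The ratios combine 2 channels, and the pool channel was not level between the groups of arrays. The pool is the same kind of RNA on every array, yet its centred Cy3 signal was higher on the tMCAO arrays for 33 of 67 members and lower for 1 (Cox4i2); over all features 18.3% were higher and 12.3% lower. The median Cy3 difference of the members was 0.16 against 0.025 for all features. In the Cy5 signal alone 6 members were lower, where 17.6% of all features were, and 5 were higher, where 14.9% were. The 6 were Ndufc1, Ndufs3, Ndufb2, Ndufb4, Sdha and Uqcr11, and all of them are among the 17. The 5 were Ndufaf4, Emc8, Ndufv3, Ndufb3 and Cox5b. Of the 17 members lower in the ratio, 15 had a Cy5 difference below 0 and 9 had a higher pool signal. The median Cy5 difference was -0.11 for the members and -0.092 for all features, so on this scale the members as a group lay near the median of the array. By complex it was -0.13 for I, -0.30 for II and for III, -0.081 for IV and 0.19 for V.

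**Figure D4:**
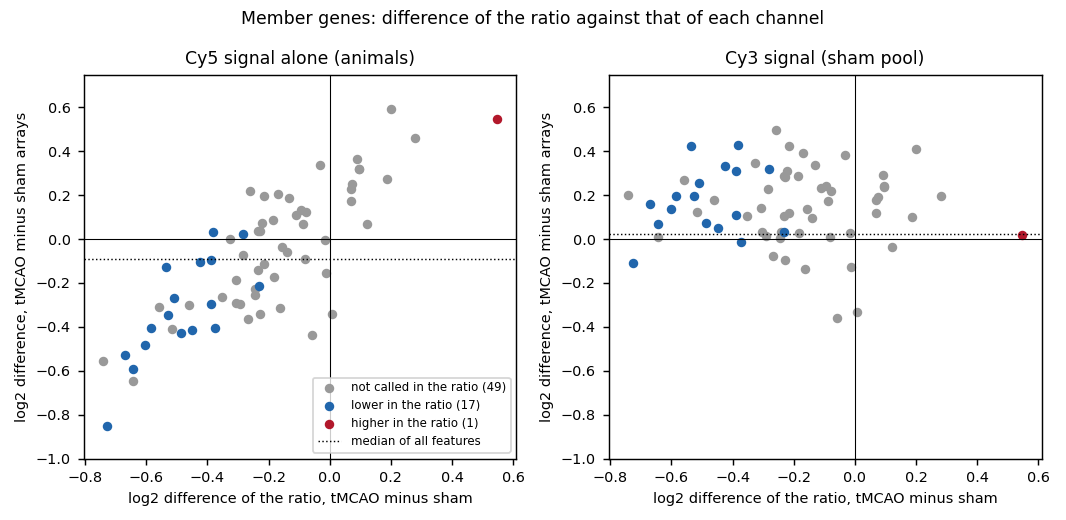
Difference of the log2 ratio (x axis) of each of the 67 members against the difference of its Cy5 signal (left) and of the Cy3 signal of the pool (right), all as tMCAO minus sham on the log2 scale. The dotted lines are the medians of all features, -0.092 for Cy5 and 0.025 for Cy3; most members lie above the dotted line in the right panel.

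The linear signals show the 2 patterns. For Ndufc1 the pool was 1.58 to 1.68 on the arrays of sham animals and 1.48 to 1.65 on the others, while the animals' Cy5 signal was 1.56 to 1.79 in sham and 0.74, 0.89, 0.87 and 1.52 in tMCAO. Here the Cy5 channel carried the difference. For Ndufv1 the animals' signal was 1.1 to 1.24 in sham and 0.94, 1.05, 1.06 and 1.41 in tMCAO, and the pool was 1.08 to 1.26 beside the sham animals and 1.53 to 1.76 beside the tMCAO animals. In that gene the pool moved more than the animals (Cy5 difference -0.13, adjusted p = 0.472; Cy3 difference 0.43, adjusted p = 0.00457). For Ndufaf4 the pool was 0.56 to 0.63 on all arrays and the Cy5 signal rose from 0.57 to 0.69 in sham to 0.86 to 1.01 in tMCAO. No label gives a hybridisation batch, and such a batch and the group cannot be told apart.

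**Figure D5:**
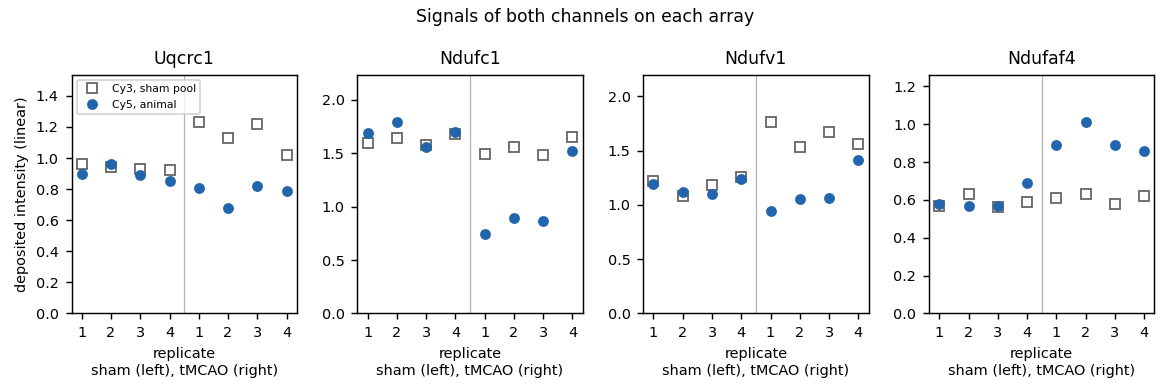
Deposited linear intensity of Cy3 (the sham pool, squares) and Cy5 (the animal, circles) on each array for Uqcrc1, Ndufc1, Ndufv1 and Ndufaf4. In Ndufc1 and Ndufaf4 the pool stays near one level and the animals' signal changes; in Uqcrc1 and Ndufv1 the pool is higher on the tMCAO arrays.

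The background of the comparison, the sham animals against the pool, gave 0 called members by limma, with 1 at an unadjusted p under 0.05, and member values from -0.16 to 0.16. Over all 17928 features only 9 were called. The pool is itself RNA of sham cortex, so few calls were likely for any set of genes. The test also used 1 error estimate per feature for all 8 arrays, which includes the spread of the tMCAO animals. For Ndufc1, for example, the SD was 0.0643 among sham and 0.387 among tMCAO arrays. The 0 therefore says nothing particular about the members. Left out of the fit, tMCAO replicate 4 changed the counts most. Without it 35 members were lower and 3 higher, while over all features 24.1% were lower and 21.8% higher. All 17 lower calls of the full fit were among the 35. By complex 18 genes of I, 4 of II, 4 of III, 4 of IV and 3 of V were then lower, and the higher ones were Cox6b2, Atp5mc2 and Ndufaf4. Of the 14 called members described above by name and value from the full fit, 8 stayed called in each of the 8 fits without 1 array: Ndufc1, Ndufs3, Ndufb2, Ndufb4, Sdha, Uqcrc1, Dmac2 and Ndufaf4. After quantile normalization of the ratios 3 members were lower and none higher. Fewer features were then called over the whole array as well (counts in the last section). The members' share of lower calls was then below that of all features.

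Genes that work beside the respiratory chain were described by lists. Of 17 measured genes of the citric acid cycle and pyruvate dehydrogenase, 8 fell and 0 rose, with a median of -0.35 (at an unadjusted p under 0.05, 10 lower and 1 higher). Ogdh, the first subunit of oxoglutarate dehydrogenase, fell by 0.74 ± 0.16 (SE, n = 4, limma adjusted p = 0.0117). Ogdh was dim (mean Cy5 signal 0.0454), and within the rounding of the deposited values its difference could lie between -1.34 and -0.163. The isocitrate dehydrogenase subunit Idh3a fell by 0.52 ± 0.14 (adjusted p = 0.0233). Assembly factors outside the symbol rule had 5 lower genes of 22 and a median of -0.24. They included the complex I factors Ecsit (-0.48, adjusted p = 0.0403) and Acad9 (-0.41, adjusted p = 0.0081) and the complex IV factor Surf1 (-0.34, adjusted p = 0.023). In the Cy5 signal alone 17.6% of all features were lower. On that scale none of the 22 was called, with Ecsit at -0.23, Acad9 at -0.33 and Surf1 at -0.24. Of the 17 genes of the citric acid cycle list 3 were lower, near the share of all features. Of 6 electron carriers and linked dehydrogenases only Gpd2, the mitochondrial glycerol phosphate dehydrogenase, fell (-0.27, adjusted p = 0.0459; -0.071 in the Cy5 signal alone, not called). Of 18 carriers, import and chaperone genes 4 fell, with a median of -0.078, led by the oxoglutarate carrier Slc25a11 (-0.92 ± 0.22, adjusted p = 0.0166), the aspartate-glutamate carrier Slc25a12 (-0.45, adjusted p = 0.0166) and Immt of the cristae junctions (-0.39, adjusted p = 0.0385). In the Cy5 signal alone Slc25a11 was at -0.87 and called, and Slc25a12 at -0.096 and Immt at -0.32 were not.

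Of 14 measured regulators of mitochondrial biogenesis, 3 rose and 0 fell in the ratio by limma (4 and 0 at an unadjusted p under 0.05), where 15.0% of all features were called higher, and the median was 0.022. The genes that rose were Polg2, an accessory subunit of the mitochondrial DNA polymerase (0.58 ± 0.14, SE, n = 4, adjusted p = 0.0189), Gabpa, a subunit of the transcription factor GABP that binds the CCGGAAGT sequence above (0.57 ± 0.10, adjusted p = 0.00705), and Tfam, which packs and transcribes mitochondrial DNA (0.42 ± 0.12, adjusted p = 0.0315). In the Cy5 signal alone 4 of the 14 were higher, these 3 included, and 2 were lower: Nrf1 (-0.48) and Esrrg (-0.57), named after their values were seen. Over all features 14.9% were higher and 17.6% lower in the Cy5 signal alone.

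Markers of other cells moved with the groups, where 16.0% of all features were called lower and 15.0% higher. All 6 measured neuronal markers fell, with a median of -1.09, and their summed Cy5 signal went from 43.5 to 47.2 on the sham arrays to 23.1 to 34 on the tMCAO arrays. On tMCAO replicate 4 their median was -0.67, while that of the respiratory members was -0.09. All 10 microglia and macrophage markers rose (median 1.01, summed Cy5 signal 15.3 to 16.6 in sham and 22.9 to 45.6 in tMCAO), as did 4 of 5 endothelial markers (median 1.19, summed signal 5.45 to 6.23 and 9.54 to 29.5). Of 6 astrocyte markers 2 fell and 1 rose (summed signal 14.6 to 23.3 and 21.8 to 26.6), and of 6 oligodendrocyte markers 0 were called by limma, with 1 lower and 1 higher at an unadjusted p under 0.05 (median -0.22, summed signal 24.3 to 30.4 and 20.3 to 38.4). Of 8 striated muscle markers, looked at because of Cox6a2 and Cox8b, 1 fell (summed signal 3 to 5.14 and 3.53 to 5.55). No defining marker of these lists stood at 0 on the arrays, and the part of cell composition in the fall of the respiratory genes was not tested.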

How the data were processed

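Dual-colour Agilent arrays measured total RNA of the cortex of 8 rats, 4 per group, taken from the labels' titles. Agilent Feature Extraction 8.5.1.1 is named, without a role, in the submitters' processing notes. The authors deposited, for each array and 23609 probes, a linear, normalized intensity of either channel and a p-value comparing them. The deposited intensity values are rounded to steps of 0.01 from 0.01 upwards, and their scaling and the error model of the p-value are not given in the sources used here. The deposited value table of the series holds log10 of Cy5 over Cy3, within 0.00498 of the ratio of the intensities, which settled the direction.

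From the intensities log2(Cy5/Cy3) was computed, probes with a missing value (233) were left out, symbols were updated through RefSeq's gene list and probes of a symbol were averaged. This gave 17928 features. A mean per group was fitted with limma 3.58.1 in R 4.3.3 (lmFit, eBayes, 2-sided). Fits were tested on simulated data with 200 changed features.

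The members and lists were chosen with earlier results of these data known. Members named are, in each complex and among the other matches, the 5 called with the largest fall, those that rose, 2 by signal where fewer than 2 were called, and all isoform genes of Cox4i, Cox6a, Cox6b, Cox7a, Cox8 and the c-ring. Of the other lists up to 3 called genes are named, and any further name is marked in the text as a later choice. Neither the promoter motifs' spellings nor the printed promoters were chosen blind to their matches: several spellings of each were tried, and a search for the CRE sequence was not kept. Same-numbered arrays of the groups did not deviate together (correlations -0.0459 to 0.042), so numbers were not taken as pairs. Alternatives covered normalization, each channel, filters, variance models, probes, missing values, the threshold and leaving out each array. The pool channel's own test and the range within rounding were added after seeing the data.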

Additional observations from a re-analysis of the deposited data

Results flagged for a closer look

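Of 64 sets of 4 values tested (the named members and the complex medians in each group), 7 had 1 array far from the other 3 by Dixon's ratio of gap to range. For independent sets chance gives about 1 in 20. These sets share the same 8 arrays, and the medians include named members, so the 7 cannot be set against that rate. In 4 of the 7 sets the array was tMCAO replicate 4, which lay above the other tMCAO animals. It was at -0.0650 for the complex I median (others -0.361 to -0.314), at -0.215 for Ndufs3 (others -0.603 to -0.548), at -0.215 for Atp5po (others -0.712 to -0.664) and at -0.0900 for Cox4i1 (others -0.476 to -0.418). In the other 3 it was sham replicate 2, which lay above the other sham animals. It was at 0.0819 for the complex V median (others -0.0949 to -0.0662), at 0.111 for Cox4i1 (others -0.121 to -0.0820) and at 0.235 for Uqcr11 (others -0.188 to -0.134).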

How the results depend on the processing

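Under 22 alternatives, the single-gene values of the named members kept their side of the threshold in 469 comparisons, lost the call in 72 and gained one in 22. The sign changed in 7 comparisons, of which 1 was of a called gene: Cox7b, at 0.0226 in the Cy5 signal alone. The other 6 were of uncalled genes: Cox6a2 (0.221) and Sdhb (0.0026) in Cy5 alone, and Cox4i2 in 4 fits (-0.343 to -0.0369). These counts leave out Ndufs6, which was called lower but not chosen by the naming rule. It was at 0.032 in the Cy5 signal alone. Lower and higher members were 3 and 0 after quantile normalization, 6 and 5 in the Cy5 signal alone, 38 and 2 against the pool alone, and 40 and 3 with array weights. At an adjusted p under 0.01 3 were lower. With the replicate number as a block 9 were lower. Higher members were 2 without the dimmest 25% of features, with the brightest probe per gene and with every probe on its own. Over all features, lower and higher calls were 1382 and 1528 after quantile normalization, 4723 and 4056 against the pool alone, 4637 and 4062 with array weights, and 867 and 1083 at an adjusted p under 0.01. The members' median was -0.11 after quantile normalization and also -0.11 in Cy5 alone. Complex III had a median of -0.26 and complex IV of -0.13 after quantile normalization. In Cy5 alone complex III was at -0.30, complex IV at -0.081 and complex V at 0.19. Complex IV was at -0.15 against the pool alone and at -0.17 with array weights. Leaving out each array in turn gave 8 (without tMCAO replicate 3) to 35 (without tMCAO replicate 4) lower members, 9 to 10 without 1 sham array and 11 without tMCAO replicate 1 or 2. It gave 1 to 3 higher members, and 1701 to 4317 lower features. Every set of lower members drawn without 1 array, except that without replicate 4, was a part of the 17. Complex II was as low as complex III in Cy5 alone (-0.30) and without tMCAO replicate 4 (-0.58 each), so the complexes have no settled order. Missing values and signals near the top of the scale limit the brightest subunits, and rounding limits the dimmest. Causes of these changes were not tested.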
